A study of Homo sapiens with 12 samples.

Results

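The MYC, MAX and MXD network was followed through 10 genes, MYC, MYCN, MAX, MXD1, MXD3, MXD4, MXI1, MNT, MGA and MLX, each taken by its gene symbol from a table of 63129 gene IDs. Each symbol had 1 row. Of the 10 members, 8 were among the 18731 genes tested. MYCN was listed at 0 in all 12 libraries, and MGA lacked a value in 5 libraries. RNA sequencing covered 3 established human lines from diffuse large B cell lymphoma of the germinal centre type. All 3 lines carry an activating mutation of EZH2, located in its SET domain, and EZH2 is the H3K27 methyltransferase of Polycomb repressive complex PRC2. KARPAS-422 cells were cultured with the EZH2 inhibitor CPI-169 (n = 3) or with DMSO (n = 3). Pfeiffer cells were cultured with the EZH2 inhibitor GSK343 (n = 2) or with DMSO (n = 2), and RL cells with DMSO (n = 2). Both inhibitors were used at 1.5 µM, the vehicle was 0.1% DMSO, and the cells were collected after 4 days. The inhibitor differed with the line, so that compound and line cannot be told apart, and the labels do not say whether the libraries of a group came from separate cultures. All p-values therefore measure only how these libraries vary, and that variation may be technical.

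MYC and its paralog MYCN are basic helix-loop-helix leucine zipper transcription factors that bind E-box DNA only as dimers with MAX. MXD1, MXD3, MXD4, MXI1 and MNT pair with the same MAX and recruit the SIN3-HDAC corepressor, while MGA joins MAX to a variant Polycomb complex, PRC1.6, and MLX, a relative of MAX, dimerizes with the glucose-sensing factor MondoA and with some of the MXD proteins. In germinal centre B cells MYC is held low in most cells by BCL6, and many B cell lymphomas deregulate it.

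The promoter windows of MXD4, MXD3 and MXD1 are shown because these are the MXD genes whose transcripts changed with both inhibitors. Each runs from 250 bases before to 50 bases after the RefSeq start (GRCh38.p14), 5′ to 3′ on the strand of the gene, with any CACGTG or CACGCG match on either strand in capitals. They lie at chr4:2262060-2262359 on the minus strand (MXD4), chr5:177312703-177313002 on the minus strand (MXD3) and chr2:69914859-69915158 on the plus strand (MXD1).
MXD4: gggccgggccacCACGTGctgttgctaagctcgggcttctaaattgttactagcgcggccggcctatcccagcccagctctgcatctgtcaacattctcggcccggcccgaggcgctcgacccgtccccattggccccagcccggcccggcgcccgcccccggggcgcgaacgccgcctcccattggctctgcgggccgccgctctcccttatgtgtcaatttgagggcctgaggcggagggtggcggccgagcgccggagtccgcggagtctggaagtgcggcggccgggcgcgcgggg
MXD3: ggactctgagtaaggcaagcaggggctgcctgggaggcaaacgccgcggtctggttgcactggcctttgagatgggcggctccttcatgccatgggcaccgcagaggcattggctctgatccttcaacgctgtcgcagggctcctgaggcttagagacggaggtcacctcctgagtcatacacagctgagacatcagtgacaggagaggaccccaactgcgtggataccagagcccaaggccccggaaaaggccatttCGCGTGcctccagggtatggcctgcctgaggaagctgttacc
MXD1: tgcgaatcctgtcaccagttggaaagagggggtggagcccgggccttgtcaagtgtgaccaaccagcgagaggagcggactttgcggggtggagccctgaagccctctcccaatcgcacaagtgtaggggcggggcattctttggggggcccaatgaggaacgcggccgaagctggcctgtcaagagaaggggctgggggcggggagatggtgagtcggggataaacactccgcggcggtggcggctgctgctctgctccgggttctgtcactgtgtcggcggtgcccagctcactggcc
CACGTG is the E-box bound by MYC-MAX and MXD-MAX dimers, and its first base was at position -238 in MXD4, -193 in MNT and -50 in MLX, counted from the start. CACGCG, with its reverse complement CGCGTG, was the other motif searched, and no match of one overlapped a match of the other. It was in the MXD3 window at +9, in 1 window of MXI1 and in 1 window of MGA. RefSeq gave 14 windows for 9 of the 10 members, of which 3 held CACGTG and 3 held CACGCG. Of all 35116 windows in that table, 7.26% held CACGTG and 11.4% held CACGCG.

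In hg19, the build of the deposited table, the gene bodies lie at chr4:2249158-2264021 (MXD4), chr5:176728461-176739758 (MXD3), chr2:70124819-70170077 (MXD1), chr10:111967362-112047123 (MXI1), chr14:65472891-65569413 (MAX), chr17:2287353-2304412 (MNT), chr17:40719085-40725257 (MLX) and chr15:41913421-42062141 (MGA). Levels are given as FPKM, a fragment number scaled to the length of the transcript and to the library's mapped fragments, so that genes can be set beside each other. MYC was the most abundant member in all 5 groups and its partner MAX was among the first 3 everywhere. MXD4 was the second most abundant member in KARPAS-422 with CPI-169, where it ran from 67.0 to 78.3 FPKM and overlapped MAX, at 67.4 to 74.9 FPKM. In KARPAS-422 with DMSO it ranked 6 of 10, at 17.3 to 18.0 FPKM. In RL, MXD3 (24.5 and 25.8 FPKM) and MXD4 (26.1 and 23.04 FPKM) did not differ beyond their spread. In Pfeiffer with GSK343, MAX (29.6 and 39.2 FPKM) and MXD4 (30.2 and 33.2 FPKM) overlapped, as did MXI1 and MXD3. Pfeiffer with DMSO had MLX (30.9 and 30.7 FPKM) just above MAX (29.8 and 30.1 FPKM).

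**Figure D1:**
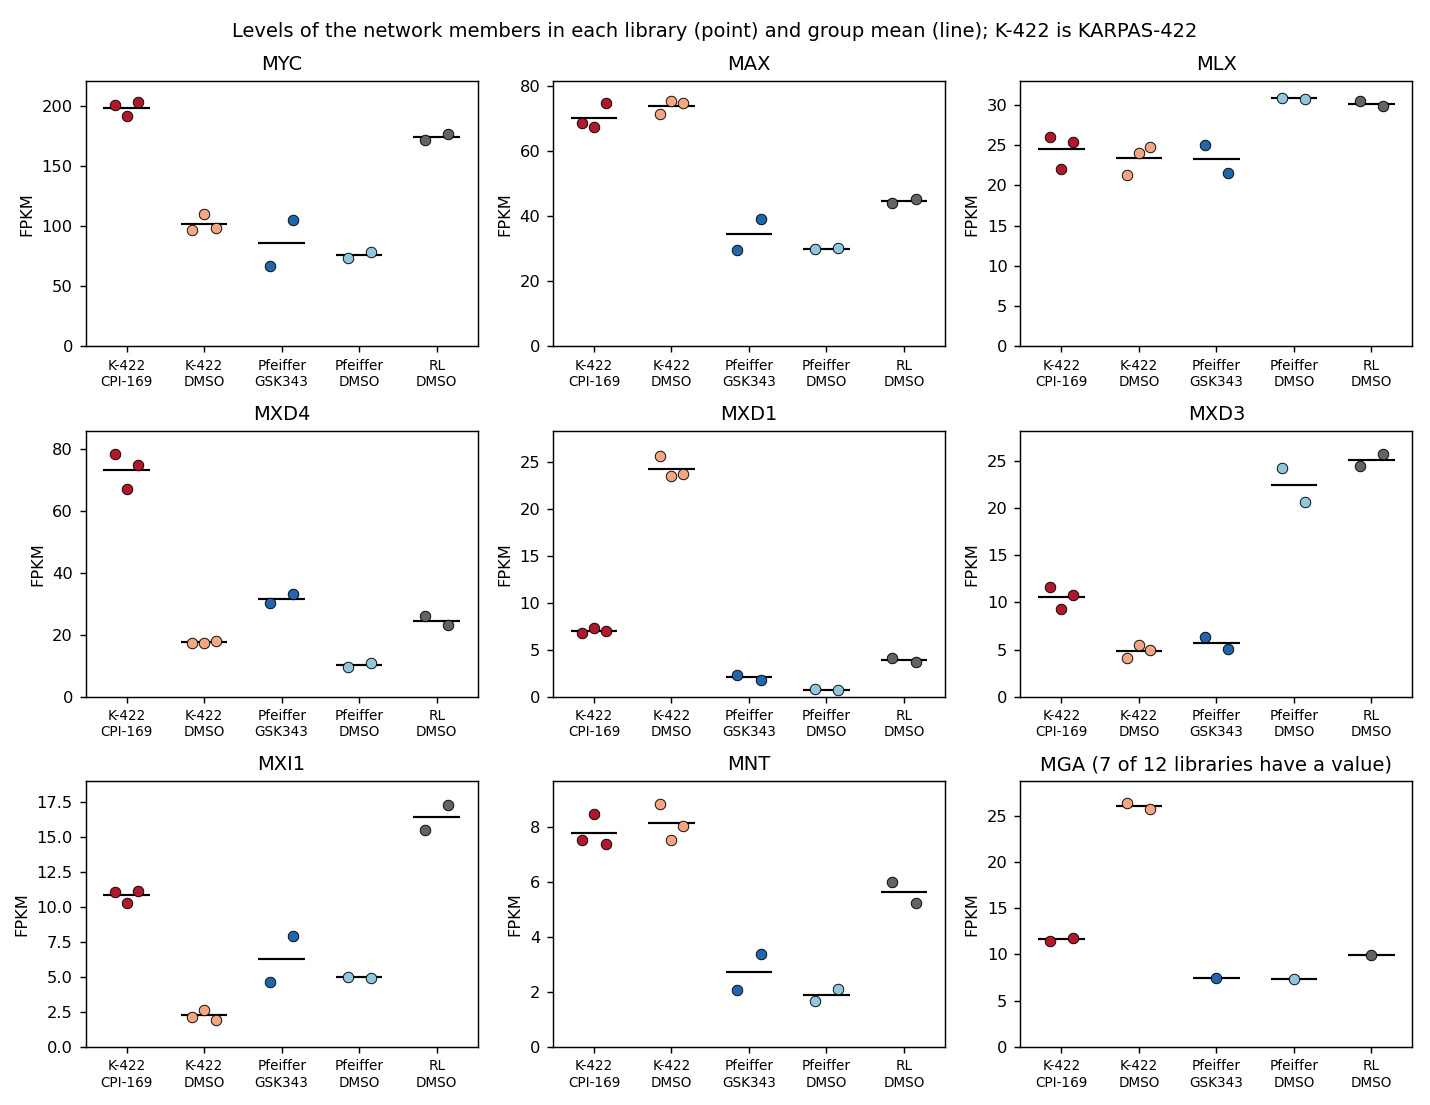
FPKM of 9 network members (MYCN, listed at 0 throughout, is not drawn) in each library, with points for libraries, a line at the group mean and groups along the horizontal axis. MXD4 is higher with both inhibitors than with DMSO, MXD1 and MXD3 move in opposite directions in KARPAS-422 and Pfeiffer, and MYC is higher with CPI-169 than with DMSO.

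Across the series, 14018 to 16391 genes reached 1 FPKM in a library, and FPKM sums ran from 371965 to 630387. Replicate libraries correlated at r = 0.993 to 0.997 on the log2(FPKM + 1) scale except the 2 GSK343 libraries, at r = 0.970, which differed by a root mean square of 0.50 against 0.19 for the Pfeiffer DMSO pair. The 6 B cell markers summed to 1479 to 2659 FPKM in every library and the 5 myeloid markers to at most 0.604 FPKM. Single B cell markers differed between lines. In KARPAS-422 against Pfeiffer with DMSO, 4 were higher and 2 lower, where 39.8% and 43.2% of all tested genes were. Their median log2 fold change was 1.95. The 6 T and NK cell markers summed to 298 to 413 FPKM in Pfeiffer, nearly all of it CD8A (297 to 412 FPKM), with CD3E and CD2 below 0.1 FPKM, and to 1.57 to 7.12 FPKM in the other lines. The 5 epithelial and stromal markers summed to 57.4 to 79.3 FPKM with GSK343 and to 140.3 to 141 FPKM with DMSO in Pfeiffer. Most of this was EPCAM, which averaged 58.2 FPKM with GSK343 and 134.6 FPKM with DMSO. COL1A1 (3.11 FPKM with GSK343 and 1.135 FPKM with DMSO) and KRT18 (4.66 and 2.99 FPKM) went the other way. In the other lines these markers summed to 0.335 to 1.49 FPKM. The 4 germinal centre markers summed to 120.0 to 293 FPKM with GSK343 and 119 to 122 FPKM with DMSO in Pfeiffer, and to 389 to 399 FPKM with CPI-169 and 265 to 278 FPKM with DMSO in KARPAS-422. The part of these markers in the results below was not tested.

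CPI-169 in KARPAS-422 went with higher MYC and with a changed makeup of the MXD transcripts, whose sum was also higher. MYC, MXD4, MXI1 and MXD3 transcripts rose and MXD1 fell, whereas MAX, MLX and MNT did not pass the test. Thus 5 of 8 tested members were called, where 54.2% of all tested genes were. By direction, 4 of 8 were higher, where 26.9% of all tested genes were, and 1 of 8 was lower, where 27.3% were. The median log2 fold change of the 8 members was 0.51, against 0.01 for all tested genes.

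MYC had 200.4, 192 and 203 FPKM in the 3 CPI-169 libraries, against 96.8, 110.0 and 98.6 FPKM in the 3 DMSO libraries. The groups did not overlap, and every CPI-169 library lay well above every DMSO library. The log2 fold change was 0.96 ± 0.14 (SE) on the log2(FPKM + 1) scale (limma, adjusted p = 1.52e-04). In bulk RNA, fewer cells with the transcript and less transcript per cell cannot be told apart, here and for every gene below.

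MAX, the obligate partner, had 68.5, 67.4 and 74.9 FPKM with CPI-169, against 71.3, 75.3 and 74.7 FPKM with DMSO. The groups overlapped, and the 95% interval of the log2 fold change ran from -0.28 to 0.14 (limma, adjusted p = 0.58). MLX, the MAX relative that pairs with MondoA, had 26.0, 22.0 and 25.4 FPKM with CPI-169, against 21.3, 24.0 and 24.8 FPKM with DMSO. Its groups also overlapped, with an interval of -0.13 to 0.26 (limma, adjusted p = 0.587). With quantile normalization MLX passed, at 0.19 (adjusted p = 0.0465).

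MXD4 is a repressor linked to cell cycle exit and differentiation. It had 78.3, 67.0 and 74.9 FPKM with CPI-169, against 17.3, 17.3 and 18.0 FPKM with DMSO. The means stood at 73.4 ± 5.81 and 17.5 ± 0.403 FPKM (SD, n = 3 each), a ratio of 4.19. Its log2 fold change was 2.00 ± 0.08 (SE; limma, adjusted p = 4.1e-08), the 2 groups lying far apart.

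MXI1, another SIN3-recruiting antagonist of MYC, had 11.1, 10.2 and 11.1 FPKM with CPI-169, against 2.14, 2.65 and 1.93 FPKM with DMSO. Here the groups did not overlap and the ratio of means was 4.83 (log2 fold change 1.87 ± 0.15, SE; limma, adjusted p = 2.82e-06). MXD3, known from proliferating cells, had 11.7, 9.34 and 10.8 FPKM with CPI-169, against 4.10, 5.48 and 4.99 FPKM with DMSO. It was 2.18-fold higher in means, with no overlap (log2 fold change 0.99 ± 0.12, SE; limma, adjusted p = 4.8e-05).

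MXD1, a repressor induced in differentiating cells, went the other way. It had 6.80, 7.28 and 6.94 FPKM with CPI-169, against 25.6, 23.4 and 23.6 FPKM with DMSO, so that the lowest DMSO library was above the highest CPI-169 library by more than the spread within either group. The mean was 3.46-fold lower with CPI-169 (log2 fold change -1.66 ± 0.09, SE; limma, adjusted p = 2.06e-07). MXD1 overlaps SNRNP27, which had 57.3 FPKM with CPI-169 and 71.2 FPKM with DMSO, and whether the counting used strand is not given.

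MNT, the MAX partner found in most cell types, had 7.501, 8.46 and 7.37 FPKM with CPI-169, against 8.83, 7.53 and 8.04 FPKM with DMSO. Those values overlapped and the 95% interval ran from -0.35 to 0.24 (limma, adjusted p = 0.771). MGA, the scaffold of PRC1.6, had 11.5 and 11.8 FPKM in the 2 CPI-169 libraries with a value, against 26.4 and 25.8 FPKM in the 2 such DMSO libraries. Fitted with missing values kept, a fit added after they were seen, MGA was 2.24-fold lower with CPI-169 (log2 fold change -1.10 ± 0.09, SE; limma, adjusted p = 2.35e-04).

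With GSK343 in Pfeiffer, MXD4 and MXD1 rose, MXD3 and MLX fell, and MYC, MAX, MXI1 and MNT did not pass. Thus 4 of 8 tested members were called, where 29.5% of all tested genes were. By direction, 2 of 8 were higher, where 12% of all tested genes were, and 2 of 8 were lower, where 17.5% were. The members' median log2 fold change was 0.22, against -0.03 for all tested genes. These calls rest on the spread shared with the other groups: with the Pfeiffer libraries fitted alone no gene of 18731 passed (4634 had an unadjusted p below 0.05) and the adjusted p was 0.0516 for MXD4 and MXD3, 0.0818 for MXD1 and 0.165 for MLX.

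MXD4 had 30.2 and 33.2 FPKM with GSK343, against 9.64 and 10.96 FPKM with DMSO. Both GSK343 libraries were above both DMSO libraries, and the ratio of means was 3.07 (log2 fold change 1.53 ± 0.10, SE; limma, adjusted p = 5.06e-06). MXD1 had 2.33 and 1.73 FPKM with GSK343, against 0.796 and 0.714 FPKM with DMSO. The groups did not overlap, at levels near the minimum of the filter where the log2(FPKM + 1) scale understates a change (0.78 ± 0.11, SE; limma, adjusted p = 5.22e-04).

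MXD3 had 6.35 and 5.06 FPKM with GSK343, against 24.3 and 20.6 FPKM with DMSO. This was the largest change of a member in Pfeiffer, 3.94-fold lower in means with no overlap (log2 fold change -1.81 ± 0.15, SE; limma, adjusted p = 1.5e-05). MXD3 overlaps RAB24 (24.5 FPKM with GSK343 and 30.4 FPKM with DMSO) and PRELID1 (67.1 FPKM with GSK343 and 112 FPKM with DMSO), and reads of overlapping genes could not be separated here.

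MYC had 66.9 and 105 FPKM with GSK343, against 73.3 and 78.1 FPKM with DMSO. One GSK343 library lay below both DMSO libraries and the other above them. The log2 fold change was 0.15, with a 95% interval of -0.22 to 0.52 (limma, adjusted p = 0.548). Without GSK343 replicate 1 it was 0.47 (adjusted p = 0.00352) and without GSK343 replicate 2 it was -0.17 (adjusted p = 0.201).

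The same 2 libraries split MAX, at 29.6 and 39.2 FPKM with GSK343 against 29.8 and 30.1 FPKM with DMSO, and MXI1, at 4.61 and 7.94 FPKM with GSK343 against 5.01 and 4.89 FPKM with DMSO. MNT had 2.07 and 3.36 FPKM with GSK343, against 1.66 and 2.11 FPKM with DMSO. In each of these 3 genes the second GSK343 library was the higher one, and without replicate 1 each passed the test, MAX at 0.38 (adjusted p = 0.00367), MXI1 at 0.59 (adjusted p = 0.00526) and MNT at 0.60 (adjusted p = 0.00628). In the fit of all libraries their 95% intervals were -0.08 to 0.44 for MAX, -0.16 to 0.66 for MXI1 and -0.01 to 0.70 for MNT. MAX also passed with quantile normalization, at 0.32 (adjusted p = 0.0434).

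MLX had 24.998 and 21.5 FPKM with GSK343, against 30.9 and 30.7 FPKM with DMSO. It was lower in both GSK343 libraries (log2 fold change -0.39 ± 0.11, SE; limma, adjusted p = 0.0195). The call was lost with quantile normalization (-0.22, adjusted p = 0.105), without GSK343 replicate 2 (adjusted p = 0.0761) and without DMSO replicate 1 (adjusted p = 0.0904) or replicate 2 (adjusted p = 0.0748). MLX overlaps PSMC3IP, which had 3.15 FPKM with GSK343 and 11.7 FPKM with DMSO; its part in the MLX values was not tested. MGA had a value in 1 library of each group, 7.44 FPKM with GSK343 and 7.37 FPKM with DMSO.

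**Figure D2:**
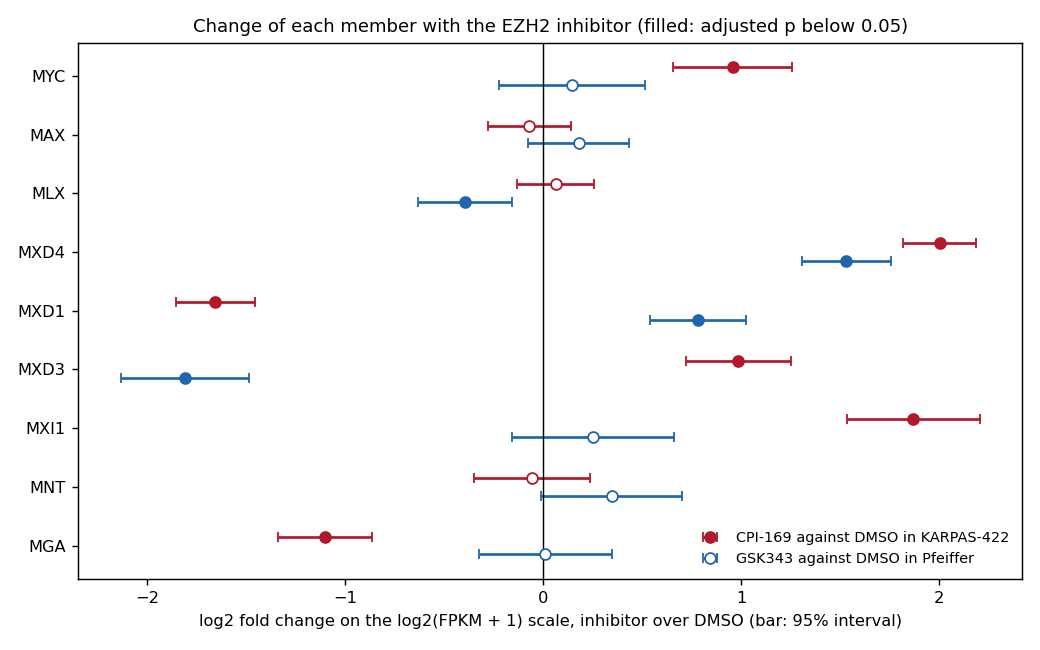
Log2 fold change of each member, inhibitor over DMSO, on the log2(FPKM + 1) scale, for CPI-169 in KARPAS-422 (red) and GSK343 in Pfeiffer (blue), with bars for the 95% interval and filled points for an adjusted p below 0.05. MXD4 is above 1.5 in both lines, while MXD1 and MXD3 lie on opposite sides of 0.

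The difference between the 2 responses was tested directly, as the GSK343 response in Pfeiffer minus the CPI-169 response in KARPAS-422. It was positive for MXD1 and negative for MYC, MXD3, MXD4, MXI1 and MLX, which is 6 of 8 tested members where 42.6% of all tested genes were called. By direction, 1 of 8 was positive, where 18.8% of genes were, and 5 of 8 were negative, where 23.8% were. For MXD1 the difference was 2.44 ± 0.14 (SE; limma, adjusted p = 1.57e-06) and for MXD3 it was -2.80 ± 0.19 (SE; limma, adjusted p = 4.08e-06); in both genes the 2 lines moved in opposite directions. MXI1 differed by -1.62 ± 0.24 (SE; limma, adjusted p = 4.38e-04) and MYC by -0.81 ± 0.22 (SE; limma, adjusted p = 0.0119).

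MXD4 rose in both lines, by 0.47 less on the log2 scale in Pfeiffer (limma, adjusted p = 0.0154; 0.0682 without Pfeiffer DMSO replicate 2). The MLX difference of -0.46 (limma, adjusted p = 0.0219) was lost in 6 alternatives, with adjusted p from 0.052 to 0.0646. MAX (0.25, 95% interval -0.08 to 0.58) and MNT (0.40, 95% interval -0.06 to 0.86) did not pass, although MAX did with median scaling (0.36, adjusted p = 0.0379) and both did without GSK343 replicate 1. Median scaling moved the median of all tested genes for this difference to 0.04, against -0.07, and turned the share of calls that were positive to 55.7%, against 44.1%.

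Since the encoded proteins share MAX as their dimerization partner, the summed FPKM of the MAX partner genes was set beside MAX. MYC, MXD1, MXD3, MXD4, MXI1 and MNT, which have a value in every library, summed to 308 ± 12.1 FPKM in KARPAS-422 with CPI-169 and to 159 ± 6.61 FPKM with DMSO (SD, n = 3 each). The sum was 112 and 156 FPKM in Pfeiffer with GSK343, against 115 and 117 FPKM with DMSO. RL had 248 and 252 FPKM. In KARPAS-422 the sum divided by the FPKM of MAX was 4.39 ± 0.206 with CPI-169 and 2.15 ± 0.0676 with DMSO (SD, n = 3 each), the groups lying apart, whereas in Pfeiffer it was 3.80 and 3.99 with GSK343 and 3.85 and 3.90 with DMSO. These ratios concern transcripts and say nothing of protein.

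The part of that sum held by MYC differed between inhibitor and DMSO by less than the spread within a group. MYC held 64.4% ± 0.882 in KARPAS-422 with CPI-169 and 64.1% ± 1.84 with DMSO (SD, n = 3 each), 59.5% and 67.2% in Pfeiffer with GSK343, 63.9% and 66.5% in Pfeiffer with DMSO, and 69.2% and 70.2% in RL. With MGA counted as a partner, in the libraries that have a value for it, MYC held 62.0% with CPI-169 and 55.8% with DMSO in KARPAS-422 (n = 2 each), and these groups did not overlap. In Pfeiffer it then held 55.8% with GSK343 and 62.6% with DMSO (1 library each), and 67.5% in 1 RL library. The MXD1, MXD3, MXD4 and MXI1 sum was 102 ± 7.19 FPKM with CPI-169 and 48.9 ± 0.299 FPKM with DMSO in KARPAS-422 (SD, n = 3 each).

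Which MXD gene led that sum differed by line and by treatment. MXD1 held 6.92% ± 0.753 of it with CPI-169 and 49.6% ± 2.24 with DMSO in KARPAS-422, and MXD4 held 72.1% ± 0.635 with CPI-169 and 35.9% ± 1.03 with DMSO (SD, n = 3 each). In Pfeiffer MXD3 held 14.6% and 10.6% with GSK343, against 61.1% and 55.5% with DMSO, and MXD4 held 69.4% and 69.2% with GSK343, against 24.3% and 29.5% with DMSO. Treated cells of both lines thus had MXD4 as the leading MXD transcript, in place of MXD1 in KARPAS-422 and MXD3 in Pfeiffer. In RL, MXD3 held 34.9% and 36.9% and MXD4 held 37.2% and 33.0%.

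**Figure D3:**
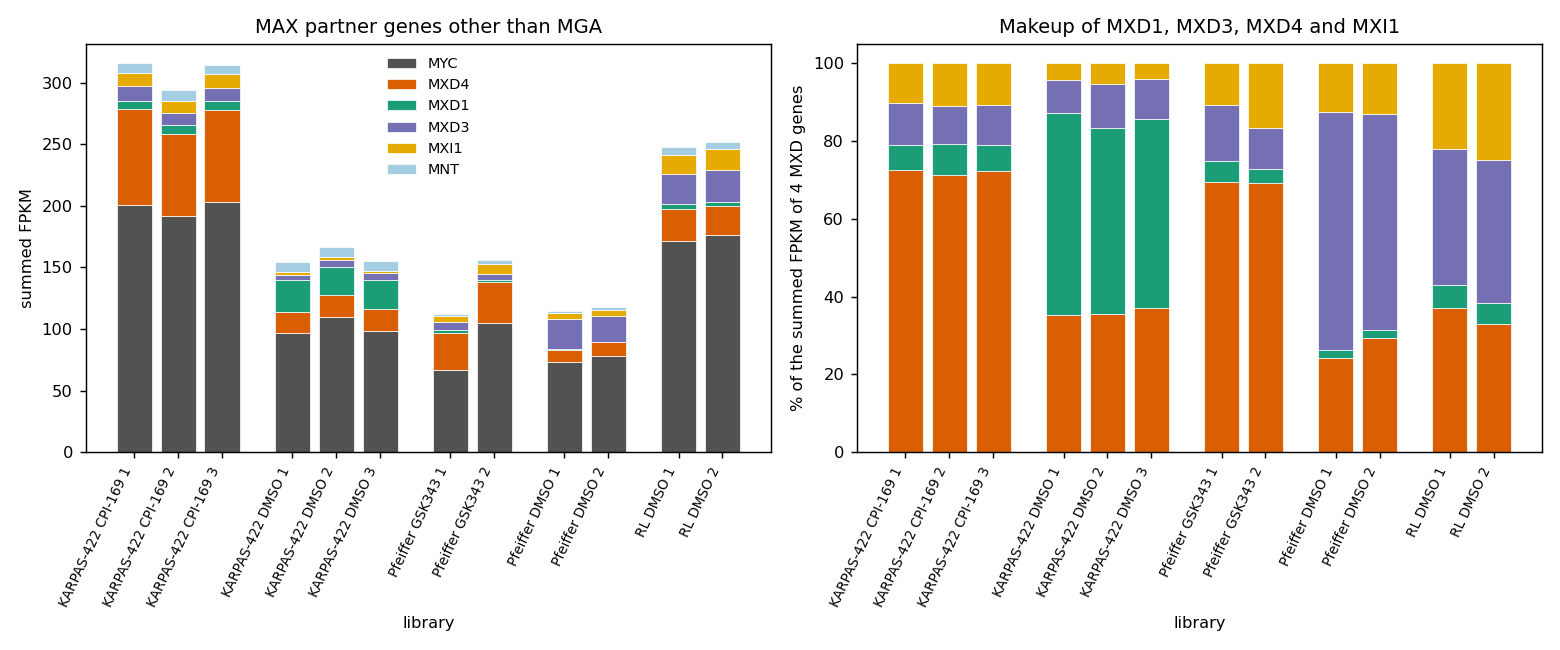
Summed FPKM of the MAX partner genes other than MGA (left) and the percent of the MXD sum held by each of 4 MXD genes (right), 1 bar per library. MXD4 is the widest segment of the MXD sum in all 5 inhibitor-treated libraries, MXD1 in KARPAS-422 with DMSO and MXD3 in Pfeiffer with DMSO.

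Among the DMSO libraries the lines had different sets of members. These 3 comparisons share DMSO libraries with each other and with the inhibitor comparisons, and a difference between lines cannot be told apart from one between library number series, of which each line has its own. In RL against KARPAS-422 all 8 tested members were called, where 66.8% of all tested genes were, 5 of them higher (33.6% of genes) and 3 lower (33.2%). In RL against Pfeiffer 6 of the 8 were called, where 74.3% of genes were. All 6 were higher (35.6% of genes) and 0 were lower (38.7%; limma, 0 also at an unadjusted p below 0.05). In KARPAS-422 against Pfeiffer all 8 were called, where 83% of genes were, 5 of them higher (39.8%) and 3 lower (43.2%), so that most genes differed between the lines as well.

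MYC averaged 174 ± 3.82 FPKM in RL (n = 2), against 102 ± 7.18 FPKM in KARPAS-422 (n = 3) and 75.7 ± 3.45 FPKM in Pfeiffer (n = 2; all SD). RL was higher than KARPAS-422 by 0.77 (limma, adjusted p = 9.68e-04) and higher than Pfeiffer by 1.19 (limma, adjusted p = 6.72e-05) on the log2 scale. KARPAS-422 was higher than Pfeiffer by 0.42 (limma, adjusted p = 0.0241), a call lost without KARPAS-422 replicate 2 (adjusted p = 0.0727) or either Pfeiffer replicate (0.12 and 0.0602). The MYC level of RL lay below the 3 CPI-169 libraries of KARPAS-422 and above every other library.

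MXD1 was the member with the widest range between lines, with 4.15 and 3.69 FPKM in RL, 25.6, 23.4 and 23.6 FPKM in KARPAS-422 and 0.796 and 0.714 FPKM in Pfeiffer. KARPAS-422 was 32.1-fold higher than Pfeiffer in means (log2 fold change 3.85 ± 0.10, SE; limma, adjusted p = 7.68e-11), and RL was 6.18-fold lower than KARPAS-422 (limma, adjusted p = 6.39e-09). MXD3 ran the other way, at 24.5 and 25.8 FPKM in RL and 24.3 and 20.6 FPKM in Pfeiffer, against 4.10 to 5.48 FPKM in KARPAS-422. Of the genes overlapping MXD3, PRELID1 averaged 120, 112 and 39.5 FPKM in RL, Pfeiffer and KARPAS-422, and RAB24 25.4, 30.4 and 11.8 FPKM. SNRNP27, which overlaps MXD1, averaged 40.5, 28.3 and 71.2 FPKM in the same order of lines. The part of these overlaps in the line differences was not tested. RL did not pass against Pfeiffer for MXD3 (0.16, 95% interval -0.16 to 0.48; limma, adjusted p = 0.335).

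MXI1 was highest in RL, at 15.5 and 17.3 FPKM, against 5.01 and 4.89 FPKM in Pfeiffer and 1.93 to 2.65 FPKM in KARPAS-422. The 3 lines did not overlap. MAX was highest in KARPAS-422, at 71.3 to 75.3 FPKM, against 44.0 and 45.3 FPKM in RL and 29.8 and 30.1 FPKM in Pfeiffer. MNT was 6.001 and 5.21 FPKM in RL, 7.53 to 8.83 FPKM in KARPAS-422 and 1.66 and 2.11 FPKM in Pfeiffer, with RL against KARPAS-422 losing its call with quantile normalization (adjusted p = 0.0527) and without RL replicate 2 (adjusted p = 0.121). MGA was 26.4 and 25.8 FPKM in KARPAS-422, 7.37 FPKM in 1 Pfeiffer library and 9.93 FPKM in 1 RL library.

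Genes known as direct MYC targets were followed as a list of 38, of which 35 were tested. With CPI-169 in KARPAS-422, 13 rose and 9 fell, where 26.9% and 27.3% of all tested genes did. The median log2 fold change was 0.18, against 0.01 for all tested genes. IMPDH2, an enzyme of guanine nucleotide synthesis, averaged 159 ± 1.91 FPKM with CPI-169 and 64.8 ± 0.684 FPKM with DMSO. CCT3, a chaperonin subunit, averaged 162 ± 13.2 FPKM with CPI-169 and 90.6 ± 8.92 FPKM with DMSO. EIF4E, the cap-binding translation factor, averaged 13.96 ± 0.368 FPKM with CPI-169 and 28.6 ± 2.18 FPKM with DMSO, and CDC25A, a cell cycle phosphatase, 4.96 ± 0.587 FPKM with CPI-169 and 10.53 ± 0.262 FPKM with DMSO (all SD, n = 3). The list thus held genes that rose and genes that fell.

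With GSK343 in Pfeiffer, 15 of the 35 fell and 0 rose (limma), where 17.5% and 12% of all tested genes did. At an unadjusted p below 0.05 the counts were 18 and 0. The median was -0.27, against -0.03 for all tested genes. CDC25A averaged 1.72 ± 0.49 FPKM with GSK343 and 6.15 ± 0.0808 FPKM with DMSO, and PTMA, which encodes prothymosin alpha, 129 ± 8.73 FPKM with GSK343 and 292 ± 15.2 FPKM with DMSO (SD, n = 2 each). Without GSK343 replicate 1 the count that rose was 3, and with the line fitted alone 0 were called in either direction.

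Between the DMSO libraries, 28 of the 35 were higher and 2 lower in RL against KARPAS-422, with a median of 1.06. For all tested genes the shares were 33.6% and 33.2%. In RL against Pfeiffer 12 were higher and 15 lower, where 35.6% and 38.7% of all tested genes were, with a median of -0.20. The lower count was 8 with quantile normalization, and the higher count reached 17 among the alternatives. In KARPAS-422 against Pfeiffer 4 were higher and 26 lower, where 39.8% and 43.2% of all tested genes were, with a median of -1.06. With quantile normalization 7 were higher, and the lower count was as low as 19 among the alternatives. The medians of all tested genes in these comparisons were 0, -0.03 and -0.06. LDHA, lactate dehydrogenase A, averaged 340 ± 30.8 FPKM in RL and 84.7 ± 6.54 FPKM in KARPAS-422, against 742 ± 12.8 FPKM in Pfeiffer. ODC1, the first enzyme of polyamine synthesis, averaged 224 ± 7.20 FPKM in RL and 74.0 ± 5.46 FPKM in KARPAS-422, against 33.0 ± 2.54 FPKM in Pfeiffer (all SD). Pfeiffer thus had the lowest MYC transcript level of the lines, the lowest ODC1 and the highest LDHA.

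The corepressor through which MXD proteins act was followed as 16 SIN3-HDAC genes, all tested. With CPI-169, 2 were higher and 9 lower, where 26.9% and 27.3% of all tested genes were, with a median of -0.26. RBBP4, a histone-binding subunit, averaged 79.0 ± 2.99 FPKM with CPI-169 and 43.7 ± 1.93 FPKM with DMSO, whereas ARID4A, a SIN3-associated chromatin reader, averaged 19.4 ± 0.356 FPKM with CPI-169 and 45.2 ± 0.770 FPKM with DMSO (SD, n = 3 each). With GSK343, 0 were higher and 7 lower (limma; 0 and 10 at an unadjusted p below 0.05), with a median of -0.32, where 12% and 17.5% of all tested genes were. The lower count was 4 with quantile normalization or without either Pfeiffer DMSO library, and 2 were higher without GSK343 replicate 1. HDAC1, a histone deacetylase, averaged 211 ± 0.312 FPKM with GSK343 and 330.1 ± 11.7 FPKM with DMSO (SD, n = 2 each).

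The 12 PRC1.6 subunits, the partners of MGA, were all tested. The shares of all tested genes called higher and lower were 26.9% and 27.3% with CPI-169, and 12% and 17.5% with GSK343. With CPI-169, 4 were higher and 3 lower, with a median of -0.01; the lower count was 6 with median scaling and 5 without either GSK343 library. YAF2, a RING1-binding subunit, averaged 17.1 ± 1.39 FPKM with CPI-169 and 53.6 ± 5.20 FPKM with DMSO (SD, n = 3 each). With GSK343, 2 were higher and 7 lower, with a median of -0.38, and 4 were lower with quantile normalization or without Pfeiffer DMSO replicate 2. The higher count of 2 was 0 or 1 in most other settings, being 0 without Pfeiffer DMSO replicate 1. CBX3, heterochromatin protein HP1 gamma, averaged 71.5 ± 8.86 FPKM with GSK343 and 125 ± 11.1 FPKM with DMSO, and PCGF6, the defining subunit, 4.50 ± 0.551 FPKM with GSK343 and 7.85 ± 0.468 FPKM with DMSO (SD, n = 2 each). Of 12 germline genes, a class PRC1.6 silences, 2 reached the filter, TDRKH and ZCWPW1. Both were higher with CPI-169, TDRKH at 6.61 ± 0.361 FPKM with CPI-169 and 3.70 ± 0.133 FPKM with DMSO, and ZCWPW1 at 6.34 ± 0.595 FPKM with CPI-169 and 4.23 ± 0.541 FPKM with DMSO (SD, n = 3 each). With no filter on low values, 6 were higher with CPI-169, where 5993 of the 37474 genes then tested were. With GSK343, ZCWPW1 was higher, at 2.44 ± 0.420 FPKM with GSK343 and 1.36 ± 0.0347 FPKM with DMSO (SD, n = 2 each), a call lost without Pfeiffer DMSO replicate 1, and both were higher with quantile normalization.

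MLX acts with MondoA on a small set of glucose-responsive genes, of which 5 were tested. The shares of all tested genes called higher and lower were 26.9% and 27.3% with CPI-169, and 12% and 17.5% with GSK343. With CPI-169, 1 was higher and 2 lower, and with GSK343, 1 was higher and 0 lower (limma; 1 lower at an unadjusted p below 0.05), or 3 higher without GSK343 replicate 1. TXNIP, the best known MondoA target and an inhibitor of glucose uptake, averaged 257 ± 13.5 FPKM with CPI-169 and 617 ± 35.1 FPKM with DMSO (SD, n = 3 each). In Pfeiffer it averaged 28.9 ± 3.79 FPKM with GSK343 and 5.13 ± 0.563 FPKM with DMSO (SD, n = 2 each), so TXNIP fell in KARPAS-422 and rose in Pfeiffer. KLF10, a TGF-beta responsive repressor, averaged 1.44 ± 0.0592 FPKM with CPI-169 and 19.2 ± 1.49 FPKM with DMSO (SD, n = 3 each).

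Genes that MYC-MAX is known to repress formed a list of 15, of which 12 were tested. All-gene shares called higher and lower were 26.9% and 27.3% with CPI-169, and 12% and 17.5% with GSK343. With CPI-169, 4 were higher and 3 lower, with a median of 0.02. GADD45A, a growth arrest gene, averaged 21.0 ± 1.11 FPKM with CPI-169 and 6.52 ± 0.966 FPKM with DMSO, and CDKN2B, which encodes the CDK inhibitor p15, 1.16 ± 0.288 FPKM with CPI-169 and 2.43 ± 0.319 FPKM with DMSO (SD, n = 3 each). With GSK343, 5 were higher and 0 lower (limma; 8 and 1 at an unadjusted p below 0.05), with a median of 0.34; 3 were higher at a minimum of 5 FPKM. Lower calls numbered 3 without GSK343 replicate 1 and 1 without KARPAS-422 DMSO replicate 1. GADD45A averaged 40.1 ± 12.5 FPKM with GSK343 and 19.2 ± 0.172 FPKM with DMSO (SD, n = 2 each), so that it rose in both lines.

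**Figure D4:**
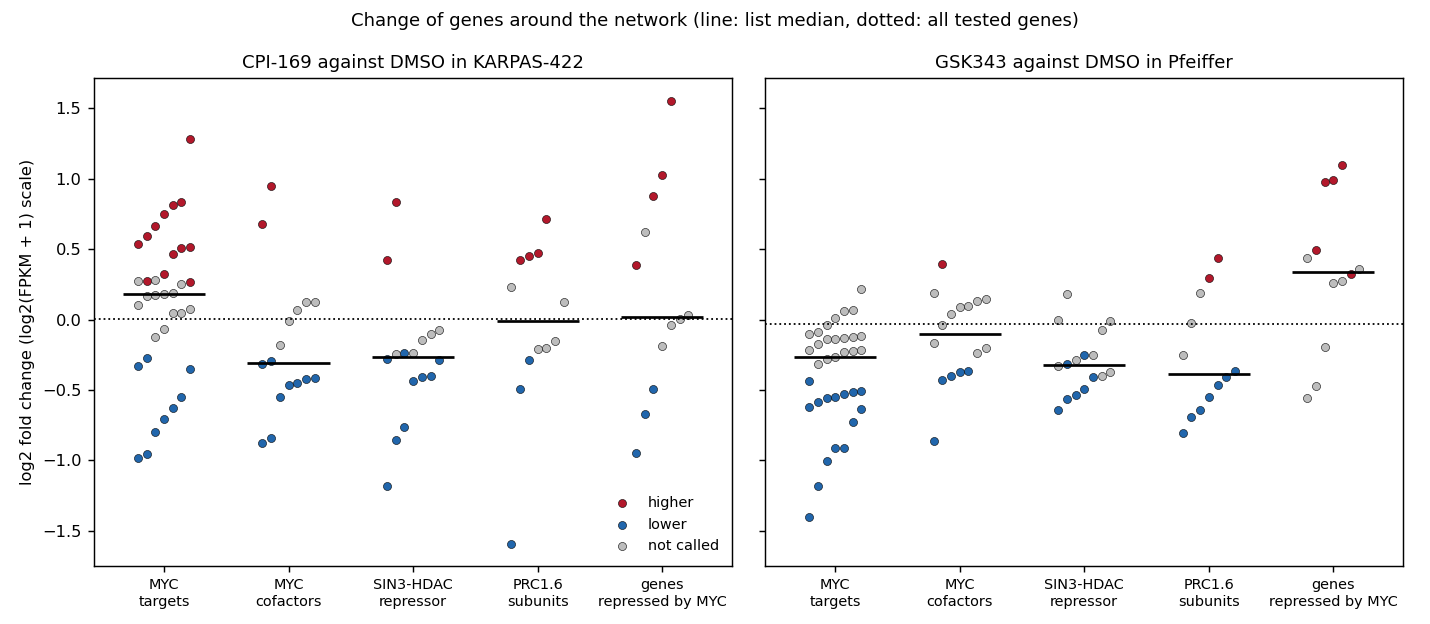
Log2 fold change of each tested gene in 5 lists around the network, with CPI-169 in KARPAS-422 (left) and GSK343 in Pfeiffer (right), on the log2(FPKM + 1) scale. Red and blue points passed the test as higher and lower, grey points did not, the black line is the list median and the dotted line the median of all tested genes. MYC targets are spread to both sides with CPI-169, and with GSK343 every called MYC target is lower.

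Genes whose level over the 12 libraries was most like that of a member were taken by Pearson r of log2(FPKM + 1). The libraries fall into 3 lines and 2 treatments, so these values are a description. For MYC they were PRMT2 (r = 0.986), an arginine methyltransferase, CENPB (0.983), SOX12 (0.977), PTMS (0.976) and MAT2A (0.973), which makes S-adenosylmethionine. For MXD3 they included CCBL1 (r = 0.977), RP11-267J23.4 (0.977), PTMAP5 (0.977, and 0.803 with quantile normalization) and TIMELESS (0.976), a replication fork protein. For MXD4 they were SMARCD3 (r = 0.982), a chromatin remodelling subunit, ARSA (0.979), ZC3HAV1 (0.967), USF1 (0.966), itself an E-box binding factor, and CCDC92 (0.962).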

How the data were processed

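Total RNA of 12 libraries was sequenced, and the authors deposited 1 table of FPKM values per gene, made from TopHat 1.4.1 alignments to hg19 and quantified by Cufflinks according to the submitters' processing notes. Not given in the sources used here are the annotation release, the library kit and the handling of strand. Per the labels' protocols, cells were lysed in Trizol or buffer RLT, and the labels do not say which lysis was used for which library. Counts were not used here, so that absolute sequencing depth is unknown and counting intervals are left out. Depth relative to the first DMSO library of each line was estimated from low FPKM values. It ran from 0.646 (KARPAS-422 with DMSO, replicate 2) to 1.33 (replicate 2 of both Pfeiffer groups). Columns were matched to samples by title, and loci came from the deposited table.

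The deposited FPKM values were transformed to log2(FPKM + 1), on which low genes show understated changes. Genes with 1 FPKM in at least 2 libraries and no missing value were kept, which left 18731; 77 genes had 192 missing values. One limma model (3.58.1, R 4.3.3) held all 5 groups, with an intensity trend. It had 7 residual degrees of freedom and 3.45 prior ones. P-values were adjusted by Benjamini-Hochberg, and genes below 0.05 were called. The fit was also run on simulated data in which all groups had the same spread for a gene. Such data cannot show whether that spread holds for the GSK343 libraries, and no conclusion is drawn from them. Alternatives were another pseudocount (0.1), filters (none and 5 FPKM), median scaling, quantile normalization, no trend, each line alone, a replicate block and each library left out. Members and gene lists were chosen with earlier results of these data known. The text names all 10 members, up to 4 called genes per list and comparison (the 2 highest and 2 lowest fold changes whose higher group averaged 2 FPKM or more, not all of them printed), and the 5 genes most like MYC, MXD3 and MXD4 among those reaching 5 FPKM; a few genes within this rule are not reported here. Motifs were searched with Python 3.11.15.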

Additional observations from a re-analysis of the deposited data

Results flagged for a closer look

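In 6 tested members the response to the EZH2 inhibitor differed between Pfeiffer with GSK343 and KARPAS-422 with CPI-169 by a test of the difference itself (limma). Given as the Pfeiffer response minus the KARPAS-422 response on the log2 scale, it was -0.81 for MYC, 2.44 for MXD1, -2.80 for MXD3, -0.47 for MXD4, -1.62 for MXI1 and -0.46 for MLX. MGA, in the fit that kept missing values, had a value of 1.11, but with 1 library each for GSK343 and DMSO in Pfeiffer it has no replicate check there and is not counted among them. Of all tested genes, 42.6% differed in this test.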

How the results depend on the processing

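Over all settings, 927 of 960 member values kept their direction and side of the threshold, 20 lost and 9 gained a call, and 4 changed sign. The total includes fits without a library outside the comparison, where only the p-value can change, not the fold change. The sign changes were MYC, at -0.174 to 0.468 without either GSK343 library, MAX, at -0.0172 to 0.378, and MXI1, at -0.0848 to 0.588, in Pfeiffer, where none was called with all libraries (the lower value is without replicate 2), and MLX in RL against Pfeiffer at 0.0213 with median scaling. CD79B in KARPAS-422 against Pfeiffer turned to 0.21 with quantile normalization. The cause was not tested. With the Pfeiffer line fitted alone, which leaves 2 residual degrees of freedom, 0 genes were called, 0 higher and 0 lower, with 0 members higher and 0 lower, against 5535 genes and 2 and 2 members in the fit of all libraries. Quantile normalization left 1 member lower in Pfeiffer and raised the share of higher calls there to 51%, against 40.7%. Median scaling gave 2 members a positive difference between responses. A minimum of 5 FPKM left 4743 of 13112 tested genes lower in RL against Pfeiffer, against 7252 of 18731 with the minimum of 1 FPKM. With each library left out in turn, the Pfeiffer comparison called 3003 (without DMSO replicate 1) to 8681 (without GSK343 replicate 1) genes, 1207 to 4458 higher and 1796 to 4223 lower, with 2 to 6 members higher and 1 to 2 lower; without DMSO replicate 2 it called 3537. The difference between responses had 1 to 3 members positive and 3 to 5 negative. A lone library is assumed there to vary like the other groups.

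The part of the partner sum held by MYC was 62.0%, 55.8%, 55.8%, 62.6% and 67.5% with MGA in KARPAS-422 with CPI-169 and DMSO, Pfeiffer with GSK343 and DMSO, and RL. Without MGA it was 64.4%, 64.1%, 63.4%, 65.2% and 69.7%, and with quantile normalization without MGA 66.8% and 67.6% in KARPAS-422 with CPI-169 and DMSO, 61.6% in Pfeiffer with GSK343 and 70% in RL. Leaving out 1 library gave 61.2% to 62.7% with CPI-169 and 54.5% to 57.1% with DMSO in KARPAS-422. Quantile normalization moved the median of all tested genes to 0.13 in RL against Pfeiffer, against -0.03, and to 0.10 in KARPAS-422 against Pfeiffer, against -0.06. MGA was fitted only with missing values kept.

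In KARPAS-422, libraries with the same replicate number did not deviate together: the correlations of their deviations were -0.15, -0.25 and 0.16. In Pfeiffer the correlation was 0.14 for the same number and -0.14 for the other number. With 2 libraries a group these are mirror values, so they cannot decide whether libraries were paired. The number was not taken to pair libraries in either line, although in Pfeiffer the library numbers of the same replicate are adjacent. With the replicate block, 9984 genes were called with CPI-169, against 10153 without it, and 5081 with GSK343, against 5535. No call of a member changed with the block. Of 3360 list counts, 205 moved by over 1.5 times, 73 of them in Pfeiffer.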

Other observations

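Known regulators of MYC transcription were followed as 13 genes. With CPI-169 in KARPAS-422, 5 rose and 3 fell, where 26.9% and 27.3% of all tested genes did, with a median log2 fold change of 0.16. BACH2, a B cell repressor, averaged 26.0 ± 2.72 FPKM with CPI-169 and 0.830 ± 0.222 FPKM with DMSO, and EBF1, an early B cell factor, 38.5 ± 1.59 FPKM with CPI-169 and 61.7 ± 1.598 FPKM with DMSO (SD, n = 3 each). With GSK343 in Pfeiffer, 7 were higher and 0 lower (limma; 7 and 0 at an unadjusted p below 0.05), with a median of 0.53, where 12% and 17.5% of all tested genes were. Without Pfeiffer DMSO replicate 1 the higher count was 4, and without GSK343 replicate 2 there was 1 lower. PRDM1, the plasma cell factor BLIMP1 and a repressor of MYC, averaged 9.25 ± 4.52 FPKM with GSK343 and 1.30 ± 0.199 FPKM with DMSO, and STAT5A 8.86 ± 1.31 FPKM with GSK343 and 3.12 ± 0.0226 FPKM with DMSO (SD, n = 2 each).

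Genes that control MYC protein stability formed a list of 19, all tested. With CPI-169, 5 rose and 10 fell, and the median was -0.31. Among all tested genes 26.9% rose and 27.3% fell. USP7, a deubiquitinase, averaged 56.8 ± 2.87 FPKM with CPI-169 and 28.9 ± 1.34 FPKM with DMSO, and the kinase AURKA 26.1 ± 1.53 FPKM with CPI-169 and 47.6 ± 3.67 FPKM with DMSO (SD, n = 3 each). With GSK343, 2 rose, against a 12% share of all tested genes, and 6 fell, against a 17.5% share. The median was -0.12. The higher count was 0 without either Pfeiffer DMSO library or with no filter on low values. It was 1 without GSK343 replicate 2, and 4 with quantile normalization or without GSK343 replicate 1. Without GSK343 replicate 1 the lower count was 10. FBXW7, the ubiquitin ligase subunit that targets MYC, averaged 15.5 ± 6.19 FPKM with GSK343 and 8.93 ± 0.0428 FPKM with DMSO, and the mitotic kinase PLK1 21.6 ± 0.257 FPKM with GSK343 and 83.9 ± 12.9 FPKM with DMSO (SD, n = 2 each).

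Among 16 MYC cofactors, 2 were higher and 9 lower with CPI-169, where 26.9% and 27.3% of all tested genes were. With GSK343, 1 was higher and 5 lower, where 12% and 17.5% of all tested genes were. The medians were -0.31 with CPI-169 and -0.10 with GSK343. The lower count with GSK343 was 1 with quantile normalization or without Pfeiffer DMSO replicate 2 and 3 without DMSO replicate 1, and the higher count was 4 without GSK343 replicate 1 and 0 without any 1 of the other 3 Pfeiffer libraries. KAT2A, a histone acetyltransferase, averaged 28.5 ± 1.17 FPKM with CPI-169 and 14.3 ± 0.345 FPKM with DMSO (SD, n = 3 each). ACTL6A, a chromatin remodelling subunit, averaged 76.7 ± 7.94 FPKM with GSK343 and 140.1 ± 0.0587 FPKM with DMSO (SD, n = 2 each). MLXIP, which encodes MondoA, was the tested gene of the other network genes and was called with neither inhibitor. The tested members of these lists were read against all-gene medians of 0.01 with CPI-169 and -0.03 with GSK343, and HDAC genes stand in more than 1 list.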
